A study of Mus with 15 samples.

Results

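The T cell receptor (TCR) alpha locus was followed through 191 of the 55573 genes in a bulk RNA count table of sorted mouse thymocytes. These 191 entries were all genes on chromosome 14 with a lowest start between 52.42 and 54.23 Mb (GRCm38) whose names begin with Trav, Traj or Trac. They comprise 130 variable (V, Trav) segments, 60 joining (J, Traj) segments and the single constant gene Trac. A further 37 genes in the same range were left out, 11 of them delta-chain segments. Each of the 191 matched 1 alpha segment of RefSeq on the same build (GRCm38.p6), where 16 V and 9 J segments are annotated as pseudogenes. The V segments span 1549.8 kb on the plus strand, from Trav1 (52427928 to 52428876) to the pseudogene Trav23 (53977153 to 53977678). The J segments span 63.8 kb, from Traj61 (54155005 to 54155076) to Traj1 (54218814 to 54218842), both pseudogenes, and Trac follows at 54220521 to 54224206 (ENSMUSG00000076928). Of the V segments, 74 lie in the d and n clusters, near-identical copies of one stretch of the locus, and 10 carry dv in their names because the delta chain can use them too.

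The alpha chain is assembled in CD4+CD8+ thymocytes, where the RAG recombinase joins a V segment to a J segment and splicing attaches the constant region. Further joins on the same chromosome pair a V segment lying farther upstream with a J segment nearer Trac and delete what lies between, until positive selection ends the process. J segments that lie between the chosen one and Trac remain on the chromosome and in the unspliced transcript, so counts on a J segment can come from cells that joined another.

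The cells came from female C57Bl/6 x Foxp3-GFP mice, 6 weeks old, and were sorted as live thymocytes with TCR beta and CD4 and without CD8 and CD73, an ecto-enzyme. CD25 is a chain of the IL-2 receptor, FOXP3 is the transcription factor of regulatory T cells (Tregs), and BST2 is a surface protein induced by interferon. Mature Tregs had CD25 and FOXP3, CD25+ progenitors had CD25 without FOXP3, FOXP3lo progenitors had low FOXP3 without CD25, and the conventional CD4SP (CD4 single-positive) gate took cells lacking both. These 4 gates lacked BST2, whereas the Bst2+ gate took BST2-bearing cells with CD25, FOXP3 or both and is thus not split by them. Each gate had 3 libraries, numbered 40, 42 and 43, from 3 biological replicates of a single sort experiment. FOXP3 was read through the GFP allele that every sample carried.

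The 15 libraries held 10816064 to 23758157 counts, of which 938 to 4092 fell on V segments and 1876 to 9212 on J segments. The 3 Bst2+ libraries stood apart: they detected 14685 to 17198 genes, against 18355 to 23382 in the other libraries, and their biological coefficient of variation was 0.937, against 0.149 to 0.24 within the other gates. Macrophage and dendritic cell markers summed to 548.6 to 900.3 CPM (a count scaled to library size) in them, against at most 7.49 elsewhere, and the double-positive thymocyte list to 896.6 to 1602.2 CPM, against 23.4 to 258.2 elsewhere. On the first of these lists, C1qa, C1qb, C1qc, Lyz2, Csf1r and Cd68 averaged 77.1 to 149.4 CPM in Bst2+ cells. Its dendritic cell markers Itgax, Flt3 and Siglech averaged only 4.50, 1.49 and 0.483 CPM there. Mean Cd4 was 530.8 to 858.9 CPM in the 5 gates and mean Cd8a 2.46 to 21.5 CPM. V, J and C levels are given as CPM, from the deposited counts and TMM factors. Tests are quasi-likelihood tests in edgeR, with p adjusted over 16069 genes by the method of Benjamini and Hochberg and a threshold of 0.05. Of the 191 members 117 passed the filter on low counts, 60 V, 56 J and Trac, and 23 V segments had no count in any library.

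Summed V transcripts were lowest in mature Tregs and highest in conventional cells. Mature Tregs had 97.25, 90.8 and 90.95 CPM on V segments in libraries 40, 42 and 43, CD25+ progenitors 114.2, 120.8 and 116.4 CPM, and FOXP3lo progenitors 122.2, 138.6 and 126.5 CPM, against 165.5, 157.8 and 164.5 CPM in conventional cells. These 4 gates did not overlap, in the order mature Tregs, CD25+ progenitors, FOXP3lo progenitors and conventional cells. Bst2+ cells had 118.3, 75.85 and 131.6 CPM, a spread that reached across the mature Treg and both progenitor gates but stayed under the conventional libraries. As log2 ratios of mean V levels to conventional cells, mature Tregs were at −0.81, CD25+ progenitors at −0.47, FOXP3lo progenitors at −0.33 and Bst2+ cells at −0.58. No test was made on a sum over chosen genes. In bulk RNA, fewer cells of a type and less of a transcript per cell cannot be told apart.

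J segments fell into a different order. Their summed level was 245.1, 210.1 and 236.1 CPM in mature Tregs, 271.9, 231.6 and 193.4 CPM in CD25+ progenitors, and 357.4, 376.6 and 354.0 CPM in FOXP3lo progenitors, against 372.6, 370.7 and 331.1 CPM in conventional cells. FOXP3lo progenitors thus overlapped conventional cells, while mature Tregs overlapped CD25+ progenitors and both lay below the other pair. Bst2+ cells were at 203.0, 151.7 and 215.1 CPM, below all conventional and FOXP3lo libraries. The log2 ratios of mean J levels to conventional cells were −0.64 (mature Tregs), −0.63 (CD25+ progenitors), 0.02 (FOXP3lo progenitors) and −0.92 (Bst2+ cells), and that of FOXP3lo progenitors was −0.09 when libraries were scaled by their totals alone, a scaling that moved the median of all genes to −0.12 in that comparison. J counts per V count were therefore highest in FOXP3lo progenitors (2.81 ± 0.105, SD, n = 3, range 2.72 to 2.92), against 2.20 ± 0.173 in conventional cells (2.01 to 2.35), and these ranges did not overlap. The ratio was 2.31 to 2.60 in mature Tregs, 1.66 to 2.38 in CD25+ progenitors and 1.63 to 2.00 in Bst2+ cells. The kit primes total RNA, so reads of unspliced J segments and their germline transcripts count as well, and their share was not measured.

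**Figure D1:**
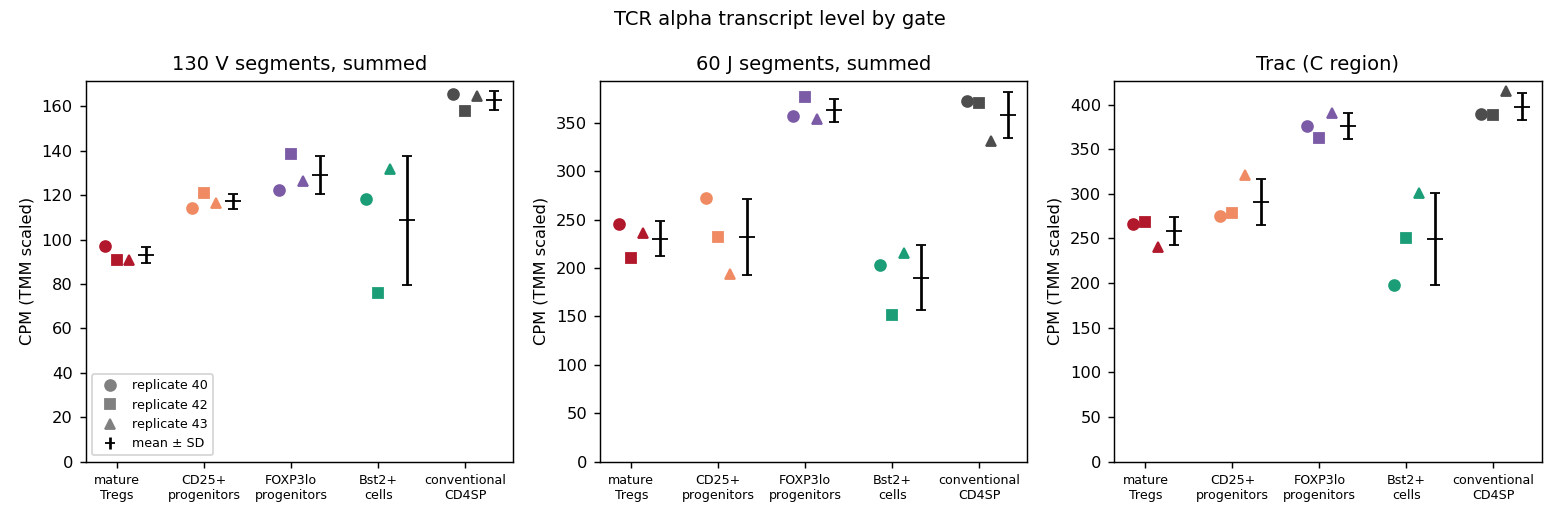
Summed V, summed J and Trac levels (CPM, TMM factors) in each of the 15 libraries, with a symbol per library and the mean ± SD of 3 beside them, gates along the axis with conventional cells last. V levels of mature Tregs (90.8 to 97.25 CPM) lie below all other libraries except 1 of Bst2+ cells, whereas J and Trac levels of FOXP3lo progenitors sit beside those of conventional cells.

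Trac, the constant region that every alpha transcript shares, was lower in mature Tregs, CD25+ progenitors and Bst2+ cells than in conventional cells. It was at 266.2, 268.7 and 240.5 CPM in mature Tregs, 274.9, 278.1 and 320.8 CPM in CD25+ progenitors, 375.6, 362.0 and 390.3 CPM in FOXP3lo progenitors and 197.4, 250.5 and 301.0 CPM in Bst2+ cells, against 389.0, 388.4 and 415.4 CPM in conventional cells. Mature Tregs, CD25+ progenitors and Bst2+ cells lay wholly below conventional cells, and FOXP3lo progenitors reached into their range with library 43. Trac fell in mature Tregs by 0.62 ± 0.117 on the log2 scale (SE, adjusted p = 0.00134), in Bst2+ cells by 0.67 ± 0.117 (adjusted p = 0.000451) and in CD25+ progenitors by 0.45 ± 0.116 (adjusted p = 0.0161). In FOXP3lo progenitors the log2 fold change was −0.08 ± 0.116 (adjusted p = 0.872). Against FOXP3lo progenitors Trac fell in mature Tregs by 0.54 ± 0.117 (adjusted p = 0.0102) and in CD25+ progenitors by 0.37 ± 0.116 (adjusted p = 0.034), and mature Tregs and CD25+ progenitors differed by −0.17 (adjusted p = 0.434). The mature Treg call against conventional cells stood under all 11 alternatives, with fold changes of −0.67 to −0.59. That of CD25+ progenitors was lost without their library 40 (−0.40, adjusted p = 0.0798), their library 42 (−0.42, adjusted p = 0.0829) or conventional library 43 (−0.42, adjusted p = 0.0736). Against FOXP3lo progenitors, the mature Treg call was lost without FOXP3lo library 43 (−0.51, adjusted p = 0.0564) or mature library 43 (−0.50, adjusted p = 0.0541), and the CD25+ call without CD25+ library 40 or 42 or any FOXP3lo library (−0.40 to −0.31, adjusted p up to 0.16).

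Genes of other receptor chains were counted beside Trac, in a list of 7 (Trbc1 and Trbc2, the beta constant regions, the CD3 chains Cd3d, Cd3e, Cd3g and Cd247, and Ptcra, the surrogate that stands in for the alpha chain in the pre-TCR). Against conventional cells, 6 of these fell and 0 rose in mature Tregs, and 6 fell and 1 rose in CD25+ progenitors. The 1 that rose was Ptcra, at 4.21 CPM against 0.0193 CPM. In FOXP3lo progenitors 1 fell, and Bst2+ cells had 2 of each. The shares of all genes called in these comparisons were 12.2, 11.6, 8.71 and 29.1 percent. Median log2 fold changes over the 7 were −0.62, −0.52, −0.13 and −0.19 in that order, against −0.01, −0.01, −0.02 and −0.03 over all genes tested. Trbc1 was at 131.6 ± 10.5 CPM in mature Tregs and 137.1 ± 8.40 CPM in CD25+ progenitors, against 240.9 ± 23.3 CPM in conventional cells (SD, n = 3), a fall of 0.87 ± 0.098 (adjusted p = 7.9e-06) and of 0.81 ± 0.098 (adjusted p = 1.95e-05). Cd247, the zeta chain, was the member that fell in FOXP3lo progenitors, at 368.0 ± 4.05 CPM against 511.5 ± 34.8 CPM in conventional cells (−0.47 ± 0.109, adjusted p = 0.00971).

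Among single segments, few calls were made between mature Tregs and conventional cells. Of the 117 tested members 4 fell and 0 rose in mature Tregs, against 12.2 percent of all genes called in that comparison (5.73 percent lower and 6.45 percent higher). Their fold changes still lay mostly to one side: 100 of 117 were negative, with a median of −0.72, against −0.01 over all genes, and all 3 mature Treg libraries lay below all 3 conventional libraries for 44 members and above for 1, against 20.1 and 19.2 percent of all genes. V segments had a median of −0.69 and J segments of −0.74. Medians over the tested members include segments with no count in a gate, whose fitted fold changes are not bounds.

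The 4 calls in mature Tregs were Trac, Trav14d-3-dv8, Traj4 and Trav8-2. Trav14d-3-dv8 (chromosome 14, 53078452 to 53079045), a d-cluster V segment that the delta chain can also use, was at 0.916, 0.692 and 1.30 CPM in mature Tregs and 5.10, 6.63 and 6.96 CPM in conventional cells (−2.67 ± 0.747, adjusted p = 0.0245), and its counts may be split with near-identical copies. Traj4 (54216291 to 54216353), close to Trac, was at 6.00, 5.40 and 5.76 CPM in mature Tregs, against 11.73, 12.66 and 11.48 CPM in conventional cells (−1.06 ± 0.322, adjusted p = 0.039). The 3 mature Treg libraries were below every conventional library for both. Trav8-2 (53738375 to 53738838) had 1, 0 and 0 counts in mature Tregs and 20, 13 and 9 in conventional cells, a ratio of 0.0315 with a 95% counting interval of 0.000779 to 0.185 (adjusted p = 0.0476). The calls of Trav14d-3-dv8, Traj4 and Trav8-2 were each lost when any 1 library of either gate was left out, with adjusted p up to 0.11 for Trav14d-3-dv8 and up to 0.288 for Traj4 and for Trav8-2 over all alternatives. With the replicate number as a block 2 members were called, Traj4 and Trav8-2 being lost, beside 1851 of 16069 genes. With the Bst2+ libraries kept out of the fit 32 of 118 members were called, all lower, against 30.4 percent of all genes.

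CD25+ progenitors differed from conventional cells at 3 members, Trac, Traj18 and Traj12, all lower, against 11.6 percent of all genes called (5.66 percent lower and 5.98 percent higher). The median over 117 members was −0.54, with 98 negative, and 40 members had all CD25+ libraries below all conventional ones while 0 lay above, against 20.3 and 20 percent of all genes. Here the J segments had a median of −0.64 with 53 of 56 negative, and the V segments −0.41 with 44 of 60 negative. Fitted without the Bst2+ libraries, 19 of 118 members were called, all lower, against 29.0 percent of all genes.

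Traj18 (chromosome 14, 54200777 to 54200842, ENSMUSG00000076911) is the J segment of the invariant alpha chain of NKT cells and is also used by other T cells. It was at 14.3, 9.74 and 9.79 CPM in CD25+ progenitors, against 22.0, 22.3 and 23.1 CPM in conventional cells, without overlap (−0.99 ± 0.296, adjusted p = 0.0363). Its fold change was −0.49 in mature Tregs (adjusted p = 0.387) and −0.18 in FOXP3lo progenitors (adjusted p = 0.899). As a share of all J counts Traj18 took 5.26, 4.21 and 5.06 percent in CD25+ progenitors and 5.89, 6.03 and 6.97 percent in conventional cells, so the share differed less than the level.

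Traj12 (54206553 to 54206610, ENSMUSG00000076917) was at 15.5, 13.8 and 11.2 CPM in CD25+ progenitors, against 25.6, 23.0 and 21.4 CPM in conventional cells (−0.79 ± 0.215, adjusted p = 0.0224). Every CD25+ library was below every conventional one. It also fell against FOXP3lo progenitors, which were at 27.4, 22.7 and 22.0 CPM (−0.83 ± 0.215, adjusted p = 0.0107). Both calls against conventional cells, of Traj18 and of Traj12, were lost without CD25+ library 42, without CD25+ library 43, and without conventional library 40 or 42, and that of Traj18 also without conventional library 43. Adjusted p reached 0.161 for Traj18 and 0.163 for Traj12 over all alternatives, and the fold changes stayed between −1.19 and −0.90 and between −0.89 and −0.67. The Traj12 call against FOXP3lo progenitors was lost without CD25+ library 43 (adjusted p = 0.0687), without FOXP3lo library 40 (adjusted p = 0.0689) or with no filter on low counts (adjusted p = 0.0847), a setting that also ended the Traj12 call against conventional cells.

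No member was called between FOXP3lo progenitors and conventional cells by edgeR, where 8.71 percent of all genes were (3.83 percent lower and 4.88 percent higher). An unadjusted p under 0.05 was held by 2 members. DESeq2 called 2 members, beside 2016 of 14373 genes. The median member was at −0.05 and 64 of 117 were negative. V and J segments parted here: V segments had a median of −0.28 with 38 of 60 negative, and J segments of 0.03 with 25 of 56 negative. All FOXP3lo libraries lay below all conventional libraries for 14 members and above for 6, against 19.9 and 18.9 percent of all genes. Without the Bst2+ libraries 3 of 118 members were called, against 25.1 percent of all genes.

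Among the gates with CD25 or FOXP3, few members were called, and their share was below that of all genes. Mature Tregs against FOXP3lo progenitors had 1 called member (Trac, lower), against 4.72 percent of all genes (2.21 percent lower and 2.51 percent higher), with a median of −0.64 and 95 of 117 negative. All mature Treg libraries lay below all FOXP3lo libraries for 43 members and above for 0, against 15.9 and 15.4 percent of all genes. CD25+ against FOXP3lo progenitors had 2 called (Trac and Traj12, both lower), against 19.1 percent (9.17 percent lower and 9.93 percent higher), with a median of −0.48 and 89 of 117 negative, and 32 members lay wholly below and 3 wholly above, against 24.4 and 24.9 percent. Fitted without the Bst2+ libraries, 18 and 16 of 118 members were called in these comparisons, against 18.7 and 39.5 percent of all genes.

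Mature Tregs against CD25+ progenitors had 1 member lower and 1 higher, against 13 percent of all genes (6.26 percent lower and 6.78 percent higher), with a median of −0.17. Trav8-2 had 1, 0 and 0 counts in mature Tregs and 13, 46 and 7 in CD25+ progenitors, a ratio of 0.0199 (95% counting interval 0.000495 to 0.115, adjusted p = 0.0243). It was low in all 3 mature Treg libraries and uneven among the CD25+ ones. Traj57 (54158505 to 54158569), near the upstream end of the J array, had 3, 18 and 7 counts in mature Tregs and 0, 0 and 0 in CD25+ progenitors, at least 12.2-fold higher against a floor of 3 counts over the gate (adjusted p = 0.0479). The call of Traj57 was lost with the replicate block and without any 1 library, and that of Trav8-2 without CD25+ library 40 or 42 or mature library 42 or 43. All mature Treg libraries lay below all CD25+ libraries for 17 members and above for 6, against 21.2 and 19.3 percent of all genes. Fitted without the Bst2+ libraries, 10 of 118 were called, 3 higher and 7 lower, against 32.7 percent.

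Whether the difference with CD25 depended on FOXP3 was tested as the interaction of both gates. No member was called by edgeR, where 2.35 percent of all genes were, 2 members having an unadjusted p under 0.05. DESeq2 called 0 members, beside 652 of 13768 genes. Fitted without the Bst2+ libraries 1 of 118 was called, against 10.9 percent of all genes.

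Bst2+ cells had the most called members against conventional cells. Of 117 tested, 36 fell and 0 rose, 16 V segments, 19 J segments and Trac, against 29.1 percent of all genes called (15.6 percent lower and 13.5 percent higher). The median was −1.01 with 94 negative, and 52 members had all Bst2+ libraries below all conventional libraries while 1 lay wholly above, against 21.6 and 14.6 percent of all genes. The count of called members moved between 25 and 46 when 1 library was left out, and that of all genes called between 3287 and 6176. The 3 members with the smallest adjusted p were segments with no count in any Bst2+ library. Such members passed the filter on low counts through other gates. Segments seen mainly in 1 Bst2+ library could fail it, as Trav22 did (2.985 percent of V counts in library 42). With no filter on low counts, 32 of 168 members were called, all lower, beside 4627 of 36307 genes.

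Traj35 (54183774 to 54183838) had 0 counts in all 3 Bst2+ libraries and 108, 34 and 66 counts in conventional cells, at least 48.4-fold lower against the floor (adjusted p = 4.09e-05). Traj45 had 0 counts against 171 over the conventional libraries (at least 39.8-fold lower, adjusted p = 0.000235). Traj33, the J segment of the invariant chain of MAIT cells, had 0 against 151 (at least 35.1-fold lower, adjusted p = 0.000285). The neighbouring segments Traj44, Traj45, Traj46 and Traj47 were all at 0 in Bst2+ cells, with 60, 171, 71 and 65 counts in conventional cells. Among V segments Trav12-2 and Trav12-3 had 0 counts in Bst2+ cells, against 109 and 101 in conventional cells.

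Other segments were present in Bst2+ cells at a lower level. Traj4 was at 2.88, 3.64 and 2.77 CPM in Bst2+ cells and at 11.73, 12.66 and 11.48 CPM in conventional cells (−1.95 ± 0.334, adjusted p = 0.000398). Traj6 (54212688 to 54212749), the J segment with the most counts, was at 7.09, 16.98 and 17.3 CPM, against 34.8, 31.95 and 30.7 CPM (−1.23 ± 0.269, adjusted p = 0.00273). Traj12 fell by 1.07 ± 0.218 (adjusted p = 0.00155) and Traj18 by 1.04 ± 0.297 (adjusted p = 0.0147). Trav14-1 (53554022 to 53554558), the V segment with the most counts, was at 6.61, 15.4 and 13.7 CPM in Bst2+ cells, against 20.55, 22.5 and 25.7 CPM in conventional cells (−0.94 ± 0.291, adjusted p = 0.0232), and Trav15-1-dv6-1 averaged 2.14 CPM against 10.03 CPM (−2.20 ± 0.634, adjusted p = 0.0152). Every Bst2+ library was below every conventional library for these 6 segments. The call of Trav14-1 was lost without conventional library 42 or 43. The markers of macrophages and double-positive thymocytes that stood high in these libraries moved with these differences. Of the 8 double-positive markers 5 rose and 0 fell, against 29.1 percent of all genes called. The CD8 chains were not among those that stood high. Cd8a was at 21.5 ± 15.6 CPM in Bst2+ cells (SD, n = 3), against 16.75 CPM in conventional cells, and Cd8b1 at 26.05 ± 15.96 CPM, against 27.8 CPM. Gamma-delta T cell markers also moved with these differences, at 110.6 to 311.2 CPM in Bst2+ cells, against 10.5 to 44.8 CPM elsewhere. Trdc, the delta constant region beside the J array, was at 51.7 CPM against 12.02 CPM in conventional cells (2.1 ± 0.363, adjusted p = 0.000423). The part of these markers in the result was not tested.

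**Figure D2:**
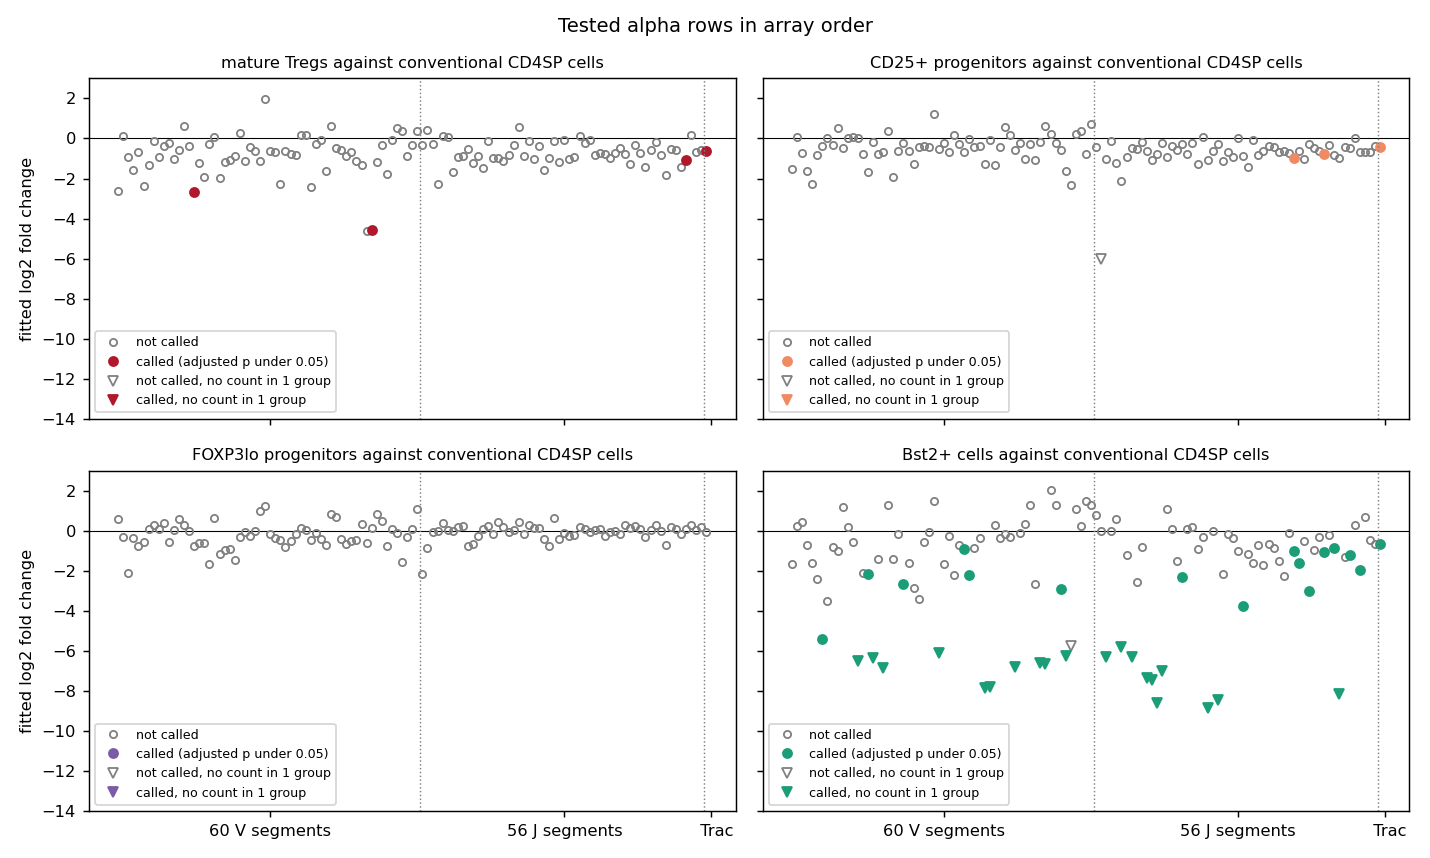
Log2 fold changes of the 117 tested members against conventional CD4SP cells in 4 gates, ordered along the locus from V through J to Trac, with called members (edgeR, adjusted p under 0.05) filled and segments with no count in 1 gate drawn as triangles, since their fitted values are not bounds. Called members, all below 0, number 4 for mature Tregs, 3 for CD25+ progenitors, 0 for FOXP3lo progenitors and 36 for Bst2+ cells.

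Segment usage was then taken as the share of a library's V or J counts that fell on each segment, which sets the overall level aside. J counts leaned strongly to the Trac side of the array in every gate. Reads of unspliced J segments and germline transcripts count, while pairs joining V to J or J to Trac do not. J usage here is thus a share of counts and not of joins. Over the 15 libraries, J segments had 2.11 counts per base from Traj61 to Traj47, 9.71 from Traj46 to Traj32, 30.1 from Traj31 to Traj17 and 37.1 from Traj16 to Traj1. The shares of J counts in these 4 stretches were 2.96, 12.3, 40.7 and 44.1 percent in mature Tregs, 2.94, 13.1, 39.1 and 44.9 percent in CD25+ progenitors, and 2.63, 12.9, 38.9 and 45.55 percent in FOXP3lo progenitors, against 2.96, 13.3, 39.8 and 43.9 percent in conventional cells. Means of these 4 gates differed by under 2 percentage points in each stretch. Bst2+ cells averaged 2.47, 12.8, 38.2 and 46.5 percent, but the second stretch alone ranged from 6.24 to 23.3 percent among the 3 libraries. Of the end segments, Traj61 had 93 counts (1.29 per base) and Traj1 had 636 (21.9 per base) over all libraries, neither being the lowest or the highest of the array, and Traj60, Traj59, Traj58 and Traj55 did not pass the filter.

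The 5 most used J segments, all in the Trac-side part of the array, were Traj6 with a mean of 9.22 percent of J counts over the 15 libraries (103.8 counts per base in total), Traj22 with 7.78 percent (90.98 per base), Traj12 with 6.34 percent (75.8 per base), Traj18 with 5.83 percent (61.1 per base) and Traj9 with 4.67 percent (56.3 per base). Traj6 led in 11 of the 12 libraries outside the Bst2+ gate, and Traj22 led in mature Treg library 43. In levels, Traj6 was called in no comparison but that of Bst2+ cells, and Traj22 in none. Traj9 fell in Bst2+ cells by 0.87 ± 0.284 (adjusted p = 0.0295) and had fold changes of −0.84 in mature Tregs (adjusted p = 0.0653) and −0.85 in CD25+ progenitors (adjusted p = 0.065). Its Bst2+ call was lost without any 1 of 5 libraries, all 3 conventional ones and Bst2+ libraries 40 and 42, and with no filter on low counts (adjusted p up to 0.105).

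**Figure D3:**
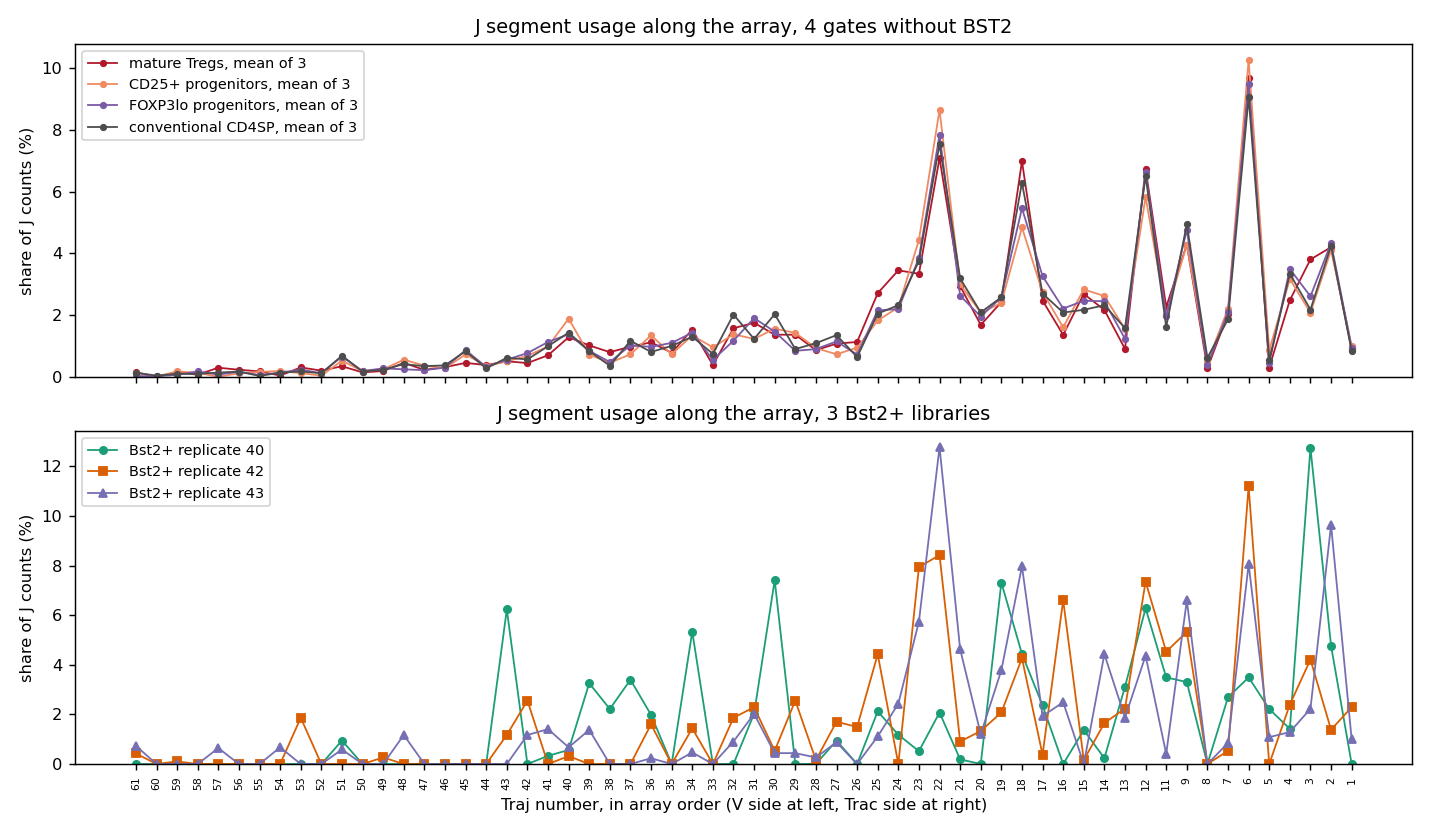
Share of J counts (percent) on each J segment, ordered from Traj61 at the V side to Traj1 at the Trac side, with the mean of 3 libraries for each of the 4 gates without BST2 in the upper panel and the 3 Bst2+ libraries apart in the lower one. The 4 upper lines run close together with their highest points at Traj6 and Traj22, while the Bst2+ libraries peak at different segments (Traj3 at 12.75 percent in library 40, Traj6 at 11.2 percent in library 42 and Traj22 at 12.8 percent in library 43).

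V usage had no such even slope. From Trav1 to Trav12d-3 there were 0.309 counts per base, from Trav13d-2 to Trav5n-3 0.174, from Trav12n-3 to Trav14-1 1.01 and from Trav15-1-dv6-1 to Trav23 1.04, the first 2 stretches being those rich in d and n copies, where reads that fit several copies were not counted. The upstream 65 of the 130 V segments held 18.3 percent of V counts for mature Tregs, 16.9 percent for CD25+ progenitors, 20.4 percent for FOXP3lo progenitors and 18.8 percent for Bst2+ cells, against 21.1 percent in conventional cells. With the d and n copies left out and the split remade over the other 56 segments, the difference of mature Tregs from conventional cells was 2.79 percentage points in place of −2.765, that of FOXP3lo progenitors −2.58 in place of −0.638 and that of Bst2+ cells −13.5 in place of −2.24, so no order of the gates is given. The end segments had 137 counts for Trav1 and 17 for Trav23.

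The most used V segment was Trav14-1, with a mean of 12.97 percent of V counts over the 15 libraries, and it led in all 12 libraries outside the Bst2+ gate. Trav15-1-dv6-1 followed with 5.88 percent, Trav14-2 with 5.01 percent, Trav14n-3 with 4.49 percent and Trav7-5 with 4.15 percent. In CPM, Trav14-1 was at 15.1, 13.98 and 11.1 in mature Tregs, 13.3, 14.3 and 15.25 in CD25+ progenitors and 13.4, 20.2 and 13.6 in FOXP3lo progenitors, against 20.55, 22.5 and 25.7 in conventional cells. All 3 gates lay below the conventional libraries, yet no fold change was called: −0.78 ± 0.29 in mature Tregs (adjusted p = 0.101), −0.68 ± 0.289 in CD25+ progenitors (adjusted p = 0.169) and −0.54 ± 0.288 in FOXP3lo progenitors (adjusted p = 0.348). Trav14-2, Trav14n-3 and Trav7-5 were called in no comparison.

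How many segments were detected in each population was compared at equal depth. At 938 V counts, mature Tregs had an expected 64.5, 58.4 and 72.7 V segments, CD25+ progenitors 68.6, 66.0 and 69.7, and FOXP3lo progenitors 73.7, 70.6 and 74.2, against 71.85, 72.3 and 77.7 in conventional cells. Bst2+ cells had 32.9, 31.0 and 38.2, below every other library. At 1876 J counts, Bst2+ cells had 32, 37 and 39 J segments, against 57.2, 58.0 and 57.3 in conventional cells, and the other 9 libraries lay between 54.5 and 57.5. Over all 3 libraries at full depth, 50 of the 107 V segments with any count and 13 of the 60 J segments had no count in Bst2+ cells, against 14 and 0 in conventional cells. A count of 0 over the gate allows a share of up to 0.0704 percent of V counts and 0.0405 percent of J counts in Bst2+ cells, for counting error only.

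The missing J segments of Bst2+ cells were not spread evenly. In the 15 segments nearest the upstream end 1 to 5 were detected per Bst2+ library, then 6 to 8, 11 to 14 and 12 to 13 in the next stretches of 15. Conventional libraries had 14 to 15, 15, 15 and 15. These detections are at full depth, with 1876 to 3412 J counts per Bst2+ library and 4977 to 9212 per conventional library. The upstream stretch also held the fewest J counts (2.47 percent in Bst2+ cells and 2.96 percent in conventional cells). Position and low abundance thus cannot be told apart here. The effective number of segments, the inverse Simpson number, weighs segments by share and does not grow with depth. For V segments, mature Tregs had 23.4 ± 3.83, CD25+ progenitors 23.8 ± 0.789, FOXP3lo progenitors 26.9 ± 3.68 and Bst2+ cells 15.7 ± 4.11, against 23.1 ± 2.29 in conventional cells (SD, n = 3). With the most used segment of each library left out, the difference of CD25+ progenitors from conventional cells turned to −3.12, against 0.674 with it, and that of Bst2+ cells was −14.95, against −7.37. For J it was 18.4 ± 1.04 in Bst2+ cells and 26.0 ± 1.35 in conventional cells, again without overlap, while the other gates averaged 24.7 to 25.6.

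**Figure D4:**
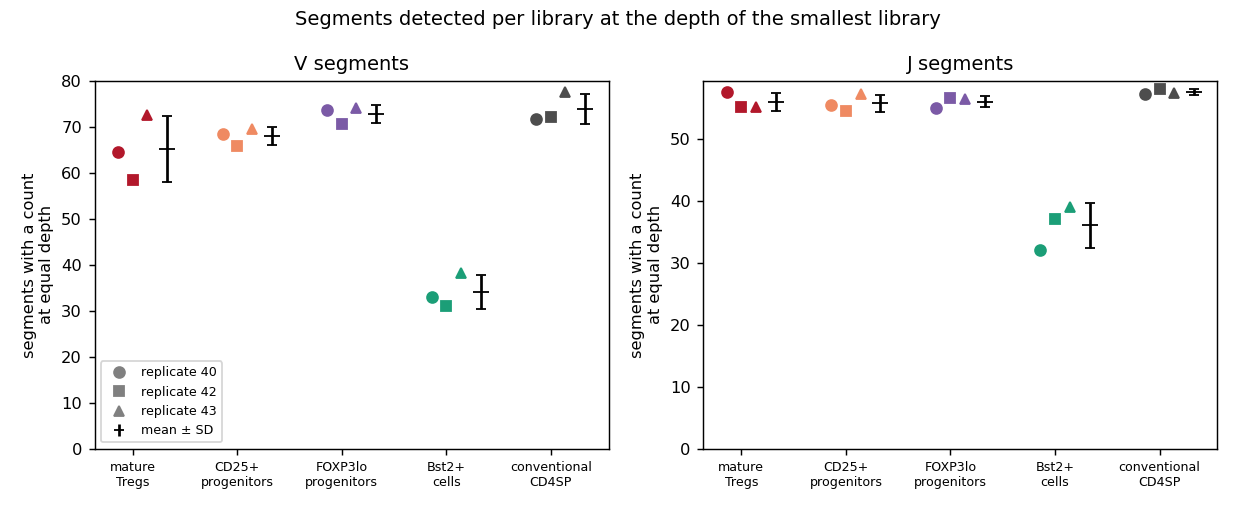
Expected number of V segments at 938 counts and of J segments at 1876 counts in each library, with a symbol per library, the mean ± SD of 3 beside them, and gates along the axis, conventional cells last. The Bst2+ libraries sit at 31.0 to 38.2 V and 32 to 39 J segments, below the other 12 libraries (58.4 to 77.7 V and 54.5 to 58.0 J segments).

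The 3 Bst2+ libraries also differed from each other. The overlap of V usage between libraries, the sum of the smaller share at each segment, was 25.2 to 45.9 percent among Bst2+ libraries, against 79.5 to 82.5 percent among conventional libraries and 65.8 to 85.05 percent within the other gates. For J it was 46.05 to 62.2 percent among Bst2+ libraries and 81.7 to 91.55 percent within other gates. Different gates without BST2 overlapped by 66.5 to 81.7 percent in V and 82.35 to 91.7 percent in J. Conventional libraries overlapped mature Treg libraries by at most 75.2 percent in V. Mature Treg libraries, with 1168 to 1405 V counts each, overlapped one another by only 65.8 to 72.1 percent, so that value does not set the 2 gates apart. Library depths differ and were not equalised for these overlaps.

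The Bst2+ libraries differed in which segments stood high. In library 40, Trav16 (53743104 to 53743705) took 11.02 percent of V counts with 136 counts (95% Wilson interval 9.39 to 12.9 percent), against at most 1.93 percent in any library of another gate and 0 and 13 counts in the other 2 Bst2+ libraries. Traj3 took 12.75 percent of J counts there (270 counts), against 4.21 and 2.23 percent in the others of the gate and 1.70 to 4.76 percent elsewhere. In library 42, Trav19 (53845234 to 53845827) took 12.9 percent with 121 counts (10.9 to 15.2 percent) and had 0 counts in both other Bst2+ libraries, while its leaders were those of most other libraries, Trav14-1 with 20.4 percent of V counts and Traj6 with 11.2 percent of J counts. In library 43, Trav7-5 took 11.02 percent (0 counts in library 40) and Traj22 12.8 percent (2.08 percent in library 40). These segments were chosen after their values were seen. In all, 15 V segments and 23 J segments had a count in all 3 Bst2+ libraries, against 67 and 58 in conventional cells.

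The invariant chains of innate-like T cells join Trav11 to Traj18 in NKT cells and Trav1 to Traj33 in MAIT cells. Trav11 had 1 count and its copy Trav11d had 0 over all 15 libraries, while Trav11n (53135122 to 53135678) had 83. Of these, mature Tregs had 10, CD25+ progenitors 11, FOXP3lo progenitors 25 and Bst2+ cells 0, against 37 in conventional cells. Reads shared by the copies were not counted, so the summed level of Trav11 is a lower limit. Traj18 had 4035 counts, far more than the Trav11 copies, and Zbtb16, the defining factor of NKT cells, averaged at most 0.485 CPM in any gate.

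The NKT marker list (7 of 9 matched) summed to 123.6 to 129.3 CPM (mature Tregs), 70.7 to 83.9 (CD25+ progenitors), 68.6 to 73.1 (FOXP3lo progenitors) and 59.8 to 80.5 (Bst2+ cells), against 93.2 to 112.6 in conventional cells. Much of it was Slamf1, at 115.9 CPM in mature Tregs and 51.8 CPM in conventional cells. In CD25+ progenitors, where Traj18 fell, the list moved both ways: of 4 tested markers, Il17rb fell to 13.03 CPM, against 48.2 CPM in conventional cells (−1.89, adjusted p = 0.00056), and Tbx21 rose to 3.43 CPM, against 0.154 CPM in conventional cells (4.30, adjusted p = 0.0452). Cd160 had a fold change of 2.77 (adjusted p = 0.0598) and Slamf1 of 0.04 (adjusted p = 0.944). Their part in the Traj18 result was not tested. For Trav1, mature Tregs had 1, 1 and 3 counts, CD25+ progenitors 2, 12 and 1, FOXP3lo progenitors 21, 24 and 17, and Bst2+ cells 0, 9 and 0, against 23, 2 and 21 in conventional cells. Conventional library 42 was low, so the gates overlap. Traj33 had 37, 122, 107 and 0 counts in those gates, against 151 in conventional cells.

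Genes that carry out V to J joining were counted beside the segments. Of 16 such genes 14 were matched and tested. In CD25+ progenitors 4 rose and 0 fell against conventional cells, in Bst2+ cells 6 rose and 3 fell, and in mature Tregs and FOXP3lo progenitors 0 rose and 2 fell. The shares of all genes called were 11.6 percent in CD25+ progenitors, 29.1 percent in Bst2+ cells, 12.2 percent in mature Tregs and 8.71 percent in FOXP3lo progenitors. Over the 14 genes the median log2 fold changes were 0.02, 0.31, −0.22 and −0.07 in that order of gates, against −0.01, −0.03, −0.01 and −0.02 over all genes. Rag1, a subunit of the recombinase, was at 57.9 ± 15.95 CPM in CD25+ progenitors (4.65 ± 0.503, adjusted p = 6.01e-06) and 396.8 ± 118.9 CPM in Bst2+ cells (7.43 ± 0.543, adjusted p = 8.21e-08), against 2.56 ± 3.07 CPM in conventional cells. Dntt, which adds bases at the joins, averaged 76.45 CPM in CD25+ progenitors and 503.7 CPM in Bst2+ cells, against 25.1 CPM in conventional cells, and Rag1 and Dntt were at 2.24 to 8.42 CPM in mature Tregs and FOXP3lo progenitors. The double-positive thymocyte list, which shares Rag1 and Dntt with these genes, summed to 195.9 to 258.2 CPM in CD25+ progenitors, against 56.5 to 100.9 CPM in conventional cells, and the gamma-delta list to 38.9 to 44.8 CPM, against 14.97 to 22.95 CPM in conventional cells. On that list Trgc1, Trgc2, Trgc4 and Blk rose in CD25+ progenitors, and Trdc was at 11.4 CPM, against 12.02 CPM in conventional cells. Sox13, the remaining member, was lower but not called, at 2.55 CPM against 5.49 CPM. On the double-positive list Cd8a was at 17.7 CPM against 16.75 CPM, and Cd8b1 at 20.6 CPM against 27.8 CPM. The part of either list in the lower Trac and Traj levels of that gate was not tested.

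Among 16 factors that bind the alpha enhancer or the locus, mature Tregs had 2 that rose and 4 that fell, CD25+ progenitors 2 and 4, FOXP3lo progenitors 2 and 3, and Bst2+ cells 3 and 7, each against conventional cells, where 12.2, 11.6, 8.71 and 29.1 percent of all genes were called. Their medians were −0.01, −0.08, 0.03 and −0.07. Lef1, which bends DNA at the enhancer, fell in all 4 gates: mature Tregs averaged 523.3 CPM, CD25+ progenitors 574.2, FOXP3lo progenitors 826.9 and Bst2+ cells 691.0, against 1163.0 CPM in conventional cells, with log2 fold changes of −1.15, −1.02, −0.49 and −0.75 (adjusted p at most 0.000874). Runx1 also fell in all 4, to 160.1, 158.2, 163.1 and 177.3 CPM, against 215.4 CPM in conventional cells. Myb rose in all 4, to 220.7, 192.9, 169.1 and 288.3 CPM, against 57.75 CPM in conventional cells. These 4 comparisons share the conventional libraries, so the agreement between them is not independent.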

How the data were processed

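Bulk RNA of sorted thymocytes was made into libraries with the SMARTer Stranded Total RNA-Seq Pico kit, per the labels' protocols. The deposited table holds raw counts (read pairs assigned to a gene) from featureCounts 1.6.2 on Ensembl 97 (GRCm38), with both ends mapped, mapping quality of at least 10 and strand setting 2, per the file headers. Multi-mapping pairs and pairs overlapping several genes were not counted, per the same headers, so pairs joining V to J or J to Trac, and reads fitting several d or n copies, are missing. Per the submitters' processing notes, reads passed through Trimmomatic 0.33, HISAT2 2.1.0 and featureCounts 1.4.6. Libraries of a gate are biological replicates of 1 experiment, and no label says if they are single mice or pools. The p-values weigh a difference of gates against a spread estimated over all 15 libraries. The Bst2+ libraries, which varied most (coefficient of variation 0.937, against 0.149 to 0.24 in other gates), entered that estimate. They cover this 1 experiment only.

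Genes were named by position from RefSeq GRCm38.p6 (Jaccard overlap of at least 0.5, margin of 0.2, and 4 segments by their sole partner at a lower overlap). Tests used R 4.3.3 and edgeR 4.0.16, quasi-likelihood (robust), on all 15 libraries with 5 group means, filterByExpr and TMM factors, in 7 comparisons and 1 interaction. The script was tested on simulated data. Usage is a segment's share of the V or J counts of its library. Segments at equal depth are expected numbers (rarefaction), intervals of shares are Wilson intervals and those of ratios are exact counting intervals, at 95% and for counting error only. A fold against a gate with no count uses a floor of 3 counts over that gate.

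Members, lists and rules were chosen with earlier results of these data known. Named segments are Trac, the NKT and MAIT chain segments, the 5 V and 5 J segments of highest mean usage, up to 4 called members per comparison and direction with the smallest adjusted p, and the ends of both arrays. Where others are named, they were chosen after their values were seen. The design text was read as tying libraries of 1 number to 1 biological replicate. Correlated across genes, the deviations of 30 same-numbered pairs of libraries from their gate means averaged 0.0107 (−0.016 to 0.042), against −0.00535 for the other 60 pairs (−0.044 to 0.035). Alternatives were RLE factors, no factor, no filter on low counts, DESeq2 1.42.0, the replicate block, leaving out the Bst2+ libraries, d and n copies or the most used segment, and leaving out each library in turn. No sequence is printed.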

Additional observations from a re-analysis of the deposited data

How the results depend on the processing

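Counts of called segments moved when the Bst2+ libraries were left out. Fitted without the Bst2+ libraries, the called members numbered 32 in mature Tregs, 19 in CD25+ and 3 in FOXP3lo progenitors against conventional cells, 10 in mature Tregs against CD25+ and 18 against FOXP3lo progenitors, 16 in CD25+ against FOXP3lo progenitors, and 1 in the interaction. The shares of all genes called were 30.4, 29.0, 25.1, 32.7, 18.7, 39.5 and 10.9 percent in that order. DESeq2 called 11, 6 and 2 in mature Tregs, CD25+ and FOXP3lo progenitors against conventional cells, 5 in mature Tregs and 7 in CD25+ against FOXP3lo progenitors. Of all genes it called 2577 of 15920, 2445 of 14681, 2016 of 14373, 1198 of 14069 and 3745 of 14681 in that order. Without the filter on low counts, 1 was called in mature Tregs against conventional cells, 0 in mature Tregs against CD25+ progenitors and 1 in CD25+ against FOXP3lo progenitors. In these fits 1961, 2099 and 2952 of 36307 genes were called. With the replicate block, 2 were called in mature Tregs against conventional cells and 1 in mature Tregs against CD25+ progenitors, beside 1851 and 2019 of 16069 genes. Apart from leaving out 1 library, given next, no other count of called members moved by over 1.5 times.

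Leaving out 1 library gave 1 call each time in mature Tregs, 0 to 2 in CD25+ progenitors, 0 in FOXP3lo progenitors and 25 to 46 in Bst2+ cells against conventional cells, 0 to 1 in each comparison among the other gates and 0 in the interaction. Against conventional cells, the genes called numbered 1342 to 1458, 1268 to 1395, 812 to 1035 and 3287 to 6176 in these gates, of 17121 to 17453 tested. In mature Tregs they numbered 1448 to 1553 against CD25+ progenitors and 418 to 519 against FOXP3lo progenitors. CD25+ against FOXP3lo progenitors had 2228 to 2383 genes called and the interaction 222 to 270, of 17188 to 17453 tested.

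Without TMM factors the log2 ratios to conventional cells were −0.92 for V, −0.74 for J and −0.73 for Trac in mature Tregs, and −0.44, −0.088 and −0.19 in FOXP3lo progenitors, where the median of all genes moved to −0.11 and −0.12. Without d and n copies the V ratio of CD25+ progenitors was −0.42, and with the split remade, the difference in the upstream share of V counts was 2.79 percentage points in mature Tregs, −2.58 in FOXP3lo progenitors and −13.5 in Bst2+ cells. Without the most used segment the difference in the effective number of V segments was −3.12 in CD25+ progenitors and −14.95 in Bst2+ cells. For single segments, 474 values kept their direction and side of the threshold, 123 lost the call and 5 gained it, and none reversed. The causes were not tested. V depth of 938 counts in the shallowest library limits segments of low usage.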

Other observations

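V segments were also summed by family, and a family need not follow its leading segment. Trav14-1 alone took 12.2 to 15.5 percent of V counts in mature Tregs, against 12.4 to 15.6 percent in conventional cells. The Trav14 family, with 9 segments, took 24.7 ± 2.03 percent of V counts in mature Tregs, 27.9 ± 2.96 percent in CD25+ progenitors and 25.7 ± 4.00 percent in FOXP3lo progenitors, and 12.6, 41.4 and 31.4 percent in the 3 Bst2+ libraries, against 32.8 ± 3.33 percent in conventional cells (SD, n = 3). Its lowest conventional library was at 30.5 percent, above every mature Treg library (22.7 to 26.75 percent) and every FOXP3lo library (22.9 to 30.3 percent) and overlapping CD25+ progenitors, whose highest library was at 31.3 percent. The Trav15 family took 8.49 percent in mature Tregs, 10 ± 0.913 percent in CD25+ progenitors, 8.62 percent in FOXP3lo progenitors and 2.29 percent in Bst2+ cells, against 7.39 ± 1.03 percent in conventional cells, and CD25+ progenitors lay above conventional cells without overlap. The Trav12 family took 0.19 percent in Bst2+ cells, against 2.76 to 3.01 percent in the other gates. These shares were not tested.

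Segments annotated as pseudogenes carried counts in every gate. The 9 J pseudogenes took 5.16 percent of J counts in mature Tregs, 6.46 percent in CD25+ progenitors, 5.62 percent in FOXP3lo progenitors and 5.59 percent in Bst2+ cells, against 5.59 percent in conventional cells. The 16 V pseudogenes took 1.03, 0.682, 1.27 and 2.97 percent of V counts in those gates, against 0.894 percent in conventional cells. V segments shared with the delta chain took 15.25, 17.9, 16.98 and 13.8 percent, against 15.8 percent in conventional cells.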
